A study of Mus musculus with 2 samples.

Results

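The ubiquitin-specific proteases (USPs) were examined in RNA sequencing of mouse embryonic stem cells (mESCs) with and without knockdown of one of them, USP21. Members were all genes whose symbol starts with Usp followed by a digit. This rule uses no measured value, and it took 56 of the 23889 gene symbols in the data. Both groups were E14 cells, which the labels trace to a 19/Ola mouse. The cells were grown without feeders on gelatin in medium with serum and leukaemia inhibitory factor (LIF). One group received a control shRNA and has the genotype label Normal. The other received an USP21 shRNA and is labelled USP21 knockdown. The cells were harvested on day 3, total RNA was sequenced, and each group is 1 library. The labels do not say which USP21 shRNA sequence was used, nor that clones were selected. Levels are FPKM, that is fragments scaled for transcript length and for sequencing depth, so that genes can be compared within a library. With 1 library per group there is no replicate error, and each difference is one between these libraries with no test. In such bulk RNA, fewer cells expressing a gene and less RNA per cell cannot be told apart.

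USPs are the largest family of deubiquitinating enzymes. They are cysteine proteases that cut the bond between ubiquitin and a substrate, or between ubiquitins of a chain, and so oppose the ubiquitin ligases. Members act on histones H2A and H2B, on DNA repair proteins, at the proteasome, in endosomes and at mitochondria. In mESCs, removal of ubiquitin sets the lifetime of several regulators, and USP21 is known to act on histone H2A and on Nanog, a transcription factor of the pluripotent state.

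The feature that most members share is the box of residues around the catalytic cysteine. The coding sequence at that position is shown for USP21, its closest relative USP2 and the members with the highest log2 ratios. It is also shown for 3 members of identical sequence there and for a member without the cysteine. Usp24 lacks the box motif, and its codon was placed by alignment to USP21. The windows come from GENCODE M21 transcripts (GRCm38) and are written 5′ to 3′ on the coding strand, with the catalytic codon, or the codon aligned to it, in capitals. Usp21 codon 221 lies in exon 4 on the minus strand, and its window, chr1:171285367-171285562, spans an intron. Usp2 codon 67 lies in exon 3 on the plus strand, and its window, chr9:44089162-44090038, also spans an intron. The others are unbroken: Usp26 codon 295 (exon 9, chrX:51756506-51756535, minus strand), Usp25 codon 178 (exon 5, chr16:77050516-77050545, plus strand) and Usp24 codon 1695 (exon 43, chr4:106406436-106406465, plus strand). Usp22 codon 185 is in exon 5 (chr11:61162956-61162985, minus strand). Codon 60 of Usp17la in exon 3 (chr7:104860346-104860375, plus strand), codon 60 of Usp17lb in exon 2 (chr7:104841533-104841562, minus strand) and codon 94 of Usp17le in exon 3 (chr7:104769646-104769675, minus strand) have the same 30 bases around them. Usp39 codon 233 is in exon 5 (chr6:72337717-72337746, minus strand).
Usp21: ctccgaaatctaggaaatacaTGCttcctg
Usp2: cttcgaaaccttgggaacacgTGCttcatg
Usp26: ctgcctaatgtgggaaacaccTGCtatata
Usp25: ctgaagaatgtcggcaacaccTGCtggttt
Usp24: ctgaggaacggtggcgctactTGTtacatg
Usp22: ctgatcaacctggggaacacgTGTttcatg
Usp17la: ctccagaacacaggcaacagcTGCtacctg
Usp17lb: ctccagaacacaggcaacagcTGCtacctg
Usp17le: ctccagaacacaggcaacagcTGCtacctg
Usp39: ctgaacaacataaaagccaacGACtatgca

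All 56 members were found in that annotation, and 53 had a cysteine codon at the motif or at the position aligned to it. The exceptions were Usp39, a spliceosome protein with GAC at that position, Usp40, in which the position was not located, and Usp6nl. Usp6nl carries the family's symbol but encodes a GTPase-activating protein with a TBC domain, and it is kept here because the rule goes by symbol. Some of the 53, such as Usp7, Usp9x and Usp24, lack the motif, and their cysteine was placed by alignment alone. For Usp53 and Usp54 that alignment covered only 19 and 24 residues, so their position is uncertain.

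Usp21, the target of the shRNA, stood at an FPKM of 26.2 in control cells against 3.489 after knockdown. This is a log2 ratio of -2.87, with 13.3% of the control FPKM left. Here and below the log2 ratio is that of the USP21 shRNA value over the control value, after 0.1 FPKM was added to each, and this makes differences of low genes look smaller. In the control cells Usp21 was 14th of the 56 members by FPKM, above the majority of its family. It held 2.61% of the family's summed FPKM in control cells and 0.33% after knockdown. Its log2 ratio stood at percentile 0.1 of the 11927 genes that reached an FPKM of 1 in either library, the filter used throughout.

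The data as a whole set limits on small differences. The total FPKM was 613617 for the control and 543206 for the other library, so setting the sums equal would add up to 0.176 to a log2 ratio. Low genes move less, because 0.1 FPKM is added to each value. The files hold no counts. The spacing of the lowest FPKM values, over 1439 low genes, gave the control sample a relative depth of 1.24. The log2 ratio moved with transcript length (Spearman rho 0.326 over 11378 genes, which are not independent). All 8 mESC markers fixed for the check were detected, at a summed FPKM of 4274 and 3217, and each was lower with the USP21 shRNA. Nanog had 467.1 in control cells and 257.7 after knockdown, Dppa5a 1849 and 1285, and Sox2 240.7 and 218.0. Of the 6 markers of fibroblasts or feeders 1 reached an FPKM of 1, Thy1 with 17.3 and 5.285, and the list summed to 18.29 and 6.138. The 4 primitive endoderm markers summed to 16.69 and 19.88 but went different ways. Gata6 (8.599 and 10.77) and Pdgfra (2.48 and 4.224) were higher, and Sox17 (4.016 and 3.539) and Foxa2 (1.593 and 1.347) lower. The 4 neural ones summed to 44.62 and 28.76. Tubb3 (38.49 and 20.38) and Sox1 (6.08 and 8.302) reached 1, and only Tubb3 was lower. Neurog2, which marks neural precursors, was listed at 0 in the control library. The part of these in the values of the family was not tested.

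The family was broadly expressed in mESCs. The filter of an FPKM of 1 in either library was passed by 49 of the 56 members, or 87.5%, against 49.9% of all symbols. In the control library 8 members had an FPKM of at least 50, and 27 had at least 10, those 8 included. Another 21 lay from 1 to 10 and 8 under 1. The median FPKM of the 49 members was 10.36 in control cells and 13.19 after knockdown, beside 11.78 and 12.08 for all genes that passed the same filter. The 10 highest members held 59.3% of the family's summed FPKM in control cells and 58.6% after knockdown. The order of the 49 members was much the same in both libraries (Spearman rho 0.949 across members).

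**Figure D1:**
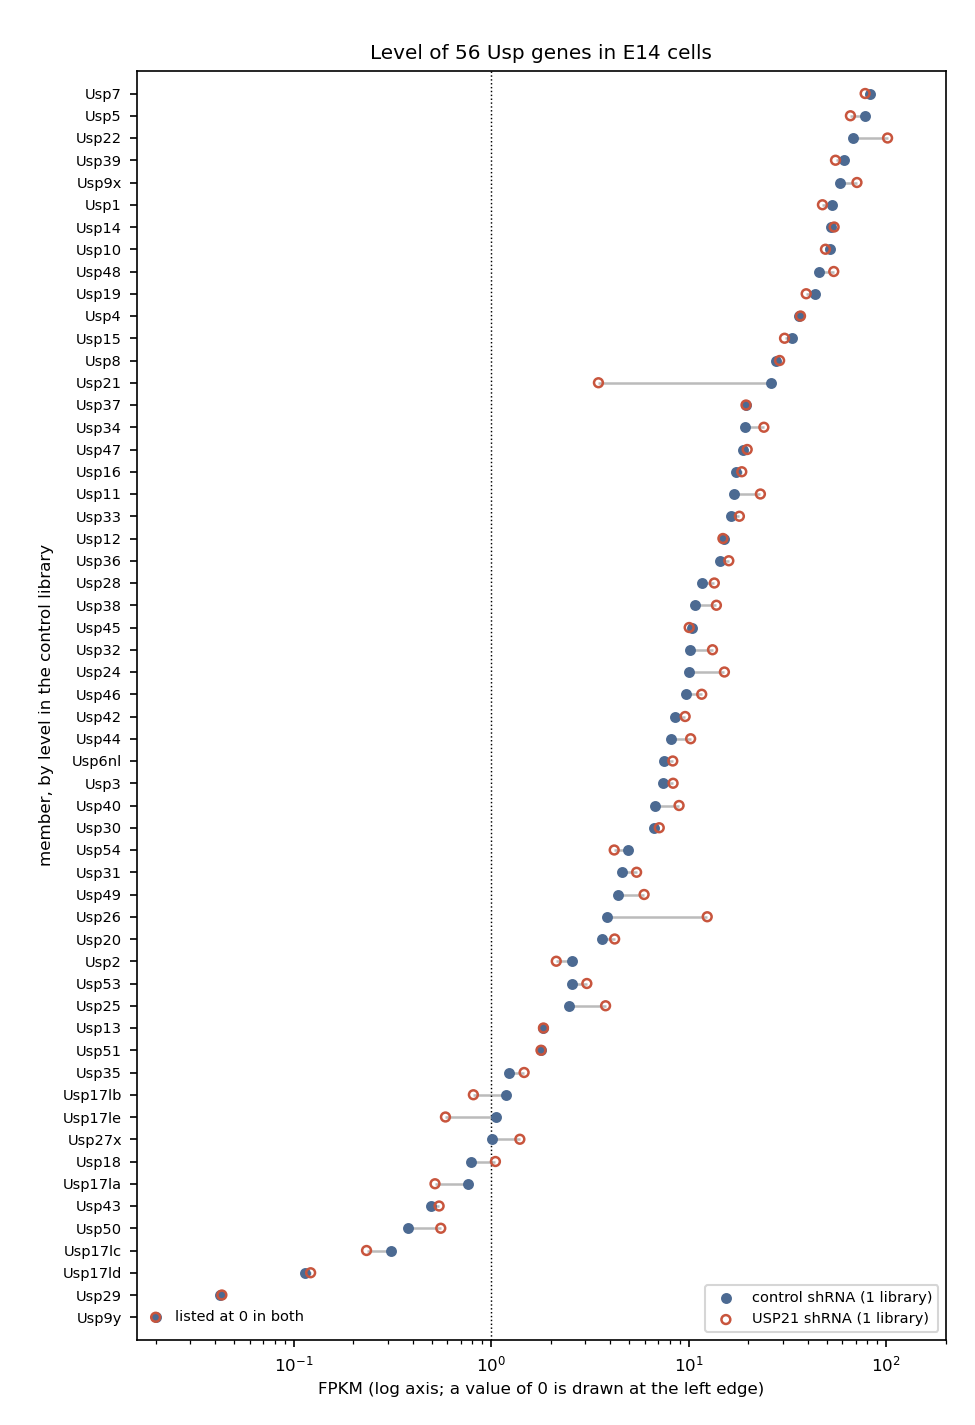
FPKM (log axis) of all 56 Usp genes in the control library (filled points) and the USP21 shRNA library (open points), 1 library each, ordered by the control value, with a dotted line at an FPKM of 1. The points of a member nearly coincide for the majority, and the longest gaps are those of Usp21 (26.2 and 3.489) and Usp26 (3.843 and 12.4).

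The 10 most abundant members of the control library span several of the family's roles. Usp7, which acts on the p53 regulator Mdm2 and on many nuclear proteins, was at 82.42 FPKM in control cells and 78.16 after knockdown, and values are given in this order from here on. Usp5, which takes apart free ubiquitin chains, had 77.64 and 65.83. Usp22, the deubiquitinase of the SAGA coactivator complex, had 67.87 and 101.5. Usp22 was thus the third member by FPKM in control cells and the first after knockdown. Usp39, needed for splicing, had 61.05 and 55.32, and Usp9x, a very large X-linked enzyme, had 58.35 and 71.05. Usp1, which removes ubiquitin from Fancd2 and PCNA, had 53.12 and 47.51. The FPKM of Usp14, which trims ubiquitin at the proteasome, was 52.58 and 54.43, and that of Usp10, a partner of the stress granule protein G3bp1, was 51.89 and 49.21. Usp48 (45.72 and 54.2) and Usp19, which is anchored in the endoplasmic reticulum membrane (43.48 and 39.31), completed the 10 highest. The log2 ratios of these 10 ran from -0.24 for Usp5 to 0.58 for Usp22, and none was past 2-fold.

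At the other end, 7 members stayed under an FPKM of 1 in both libraries. Usp9y, the Y-linked copy of Usp9x, was listed at 0 in both. E14 is known as a male line, and of the 14 Y-linked symbols in the data none reached 1, the highest value being 0.2827. Usp29, from an imprinted region beside Peg3, had 0.04235 and 0.04327. Usp43 had 0.4955 and 0.5446, and Usp50 had 0.3776 and 0.5552. Usp17la, Usp17lc and Usp17ld, of the rodent Usp17-like cluster, had 0.7585 and 0.5192, 0.3109 and 0.2337, and 0.1135 and 0.1218. Usp18, which removes the ubiquitin-like protein ISG15, passed through the USP21 shRNA library alone (0.7941 and 1.05), and the 5 interferon response markers set beside it all stayed under 1.

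Of the 49 members, 1 was higher at least 2-fold with the USP21 shRNA, Usp26, against a background of 2.3% of the 11927 genes. One was lower at least 2-fold, Usp21 itself, against 2.03%. At 1.5-fold, 2 members were higher (Usp26 and Usp25, background 7.77%) and 2 were lower (Usp21 and Usp17le, background 6.46%). The other 45 lay within 1.5-fold. The middle of the log2 ratios of the members without Usp21 ran from -0.03 to 0.31 (quartiles), beside -0.22 to 0.24 for all genes.

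Usp26 had the highest log2 ratio of the family. It is an X-linked gene (chromosome X of GRCm38, 51753959 to 51801233, minus strand) known from the testis, where its protein binds the androgen receptor. Its FPKM was 3.843 in control cells and 12.4 after knockdown, a log2 ratio of 1.67 and a 3.17-fold rise on that scale. This is percentile 99.5 of all genes, and Usp26 moved from the 38th place in the family to a level beside Usp28 and Usp32. The log2 ratio stayed between 1.47 and 1.84 under every other pseudocount, scaling and length correction tried. The share of its 31-base words found in other genes was 0.0%, and so was the share of its exon bases overlapped by exons of other genes. The nearest annotated genes on either side, picked after the values were seen, were Hs6st2 with 0.4689 and 0.8318 and 1700080O16Rik with 0.1295 and 0.08085. Farther out, Mbnl3 had 1.283 and 2.003, Gpc4 had 18.93 and 29.08, Rap2c 11.48 and 10.61, and Gpc3 14.79 and 13.67. All of these neighbours lay within 2-fold. Hs6st2, Gpc4 and Mbnl3 were higher by more than 1.5-fold (log2 ratios 0.71, 0.62 and 0.60), and the others were lower. Hs6st2 and 1700080O16Rik stayed under an FPKM of 1.

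The next members were close to 1.5-fold. Usp25, which acts in cytokine receptor signalling, had an FPKM of 2.464 and 3.792 (log2 ratio 0.60). Usp24 had 10.08 and 15.15 (log2 ratio 0.58), and Usp22 had the same log2 ratio at a far higher level, as given above. These 3 stood at percentiles 92.6, 92.2 and 92.1 of all genes. Usp27x, a relative of Usp22, had 1.004 and 1.396 (log2 ratio 0.44), and Usp11, an X-linked enzyme of the Usp4 group, had 17.04 and 23.05 (log2 ratio 0.43). In FPKM units the gain of Usp22, 33.6, was the largest of any member, and Usp21 lost 22.71. Whether that gain is related to the loss of Usp21 was not tested.

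The lowest log2 ratios after Usp21 belonged to members at very different levels. Usp17le had 1.059 and 0.5864 (log2 ratio -0.76) and Usp17lb had 1.194 and 0.8121 (log2 ratio -0.51). Both passed the filter only through the control library. Usp2 had 2.561 and 2.134 (log2 ratio -0.25), Usp5 had -0.24 on this scale, and Usp54 had 4.915 and 4.193 (log2 ratio -0.22).

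**Figure D2:**
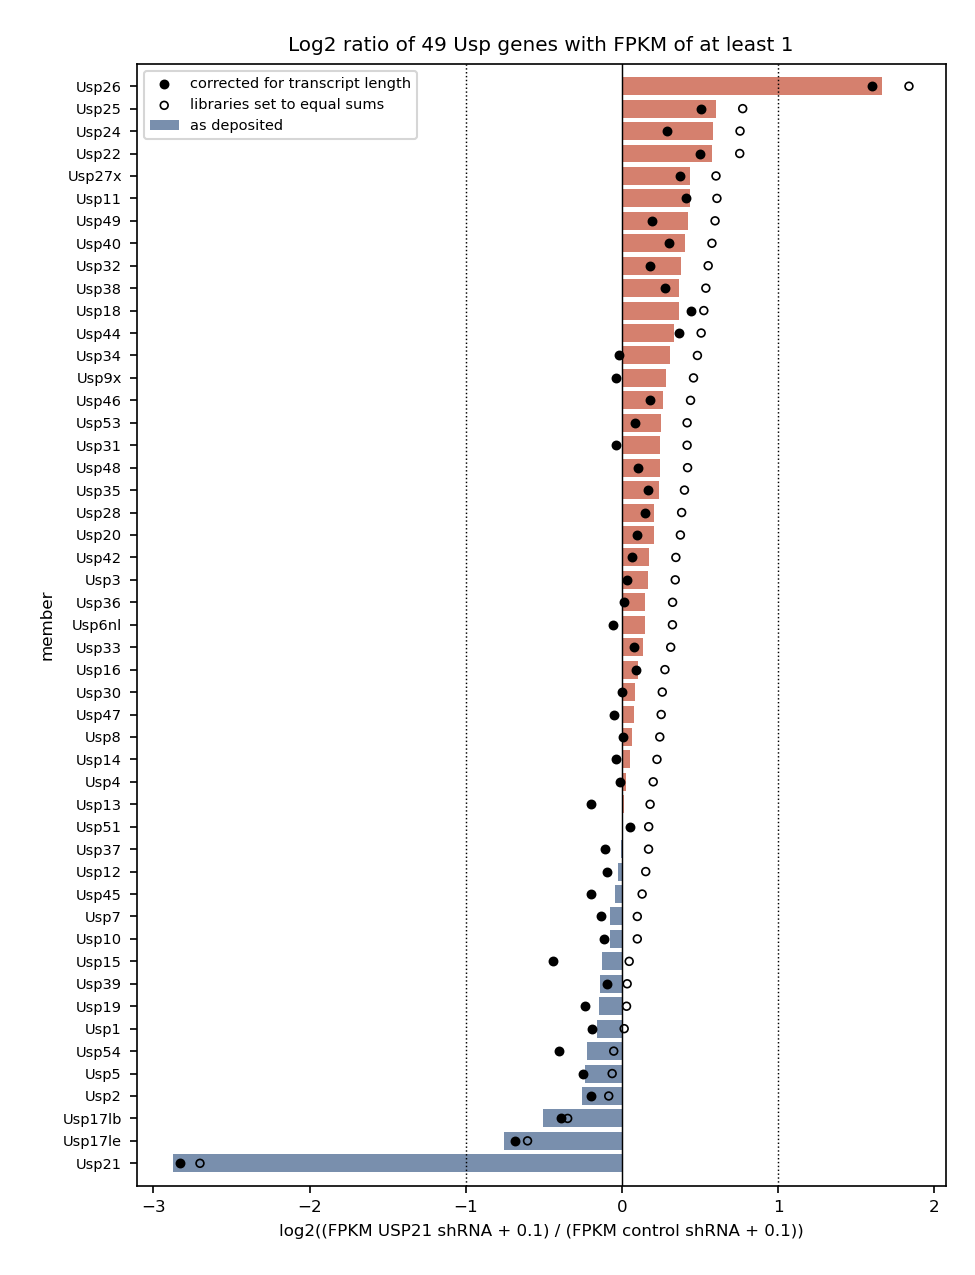
Log2 ratio of the 49 Usp genes with an FPKM of at least 1, as deposited (bars), after correction for transcript length (filled points) and with the libraries set to equal sums (open points), with dotted lines at 2-fold in either direction. Usp26 and Usp21 lie past these lines in all 3 forms, and equal sums move every member to the right.

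More members had a higher than a lower FPKM after knockdown, and how many depended on the scaling. The log2 ratio was above 0 in 34 of the 49 members and below 0 in 15, so 69.4% were above 0 against 50.4% of all genes. The median was 0.15, with or without Usp21, beside 0.00 for all genes. With equal sums 43 members were above 0 and 6 below, a median of 0.32 beside 0.18 for all genes. The share of all genes above 0 was computed only for the values as deposited. After correction for transcript length 26 were above and 23 below, with a median of 0.01. The members have long transcripts, 4604 bases in the median against 2939 for all genes that passed, and with all genes cut into 5 equal groups by length, 20 members other than Usp21 were in the group with the longest. In that group the median log2 ratio was 0.19 for members and 0.18 for all genes, and in the next longest, with 19 members, it was 0.14 and 0.05. In the group with lengths from 1661 to 2505 bases, 6 members had a median of -0.07, beside -0.06 for all genes there.

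**Figure D3:**
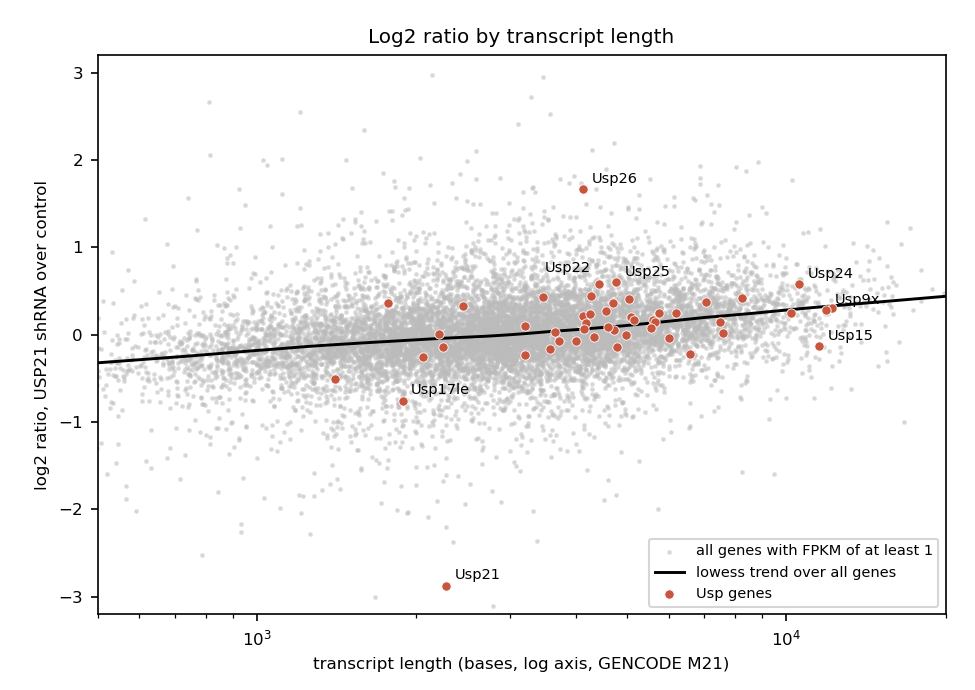
Log2 ratio against transcript length (bases, log axis) for all genes with an FPKM of at least 1 and a length (grey), with their lowess trend (line) and the Usp genes (red). Members lie mainly on the right, where the trend is above 0, while Usp26 and Usp21 are far from it, and 110 genes, none of them a member, lie outside the axes.

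Among the long members, the correction took the log2 ratio of Usp9x from 0.28 to -0.04 and that of Usp34, an enzyme that acts on axin in Wnt signalling, from 0.31 to -0.02. Usp15, which has a transcript of 11525 bases and acts on TGF-β receptors and Smads, went from -0.13 to -0.44. Usp24 kept 0.29 of its 0.58. Usp22 kept 0.50, Usp25 kept 0.51 and Usp26 kept 1.60, since their transcripts are nearer to the median length.

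The summed FPKM of the family was 1003 in control cells and 1052 after knockdown. Without Usp21 it was 976.3 and 1048, a difference of 71.9. This difference is made of gains of 111.9 over 38 members and losses of 40.02 over 16. As a share of all FPKM the family held 0.163% and 0.194%. Whether any of these differences is a response to the loss of Usp21 cannot be told apart from the difference between the 2 libraries.

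USP21 belongs to the members that remove ubiquitin from histones H2A or H2B, and all 11 of that list passed the filter. Of these, 8 had a log2 ratio above 0 and 3 below, and only Usp21 was past 2-fold. The share above 0 was 69.4% over the 49 members and 50.4% over all genes that passed. The median of the list without Usp21 was 0.22, and the summed FPKM of the other 10 was 215.0 and 252.4. Usp22 made up most of that difference. For the H2A enzymes Usp16, needed in mitosis, and Usp3, the FPKM was 17.29 and 18.55, and 7.399 and 8.329. Usp12 and Usp46, which need the activator Wdr48, had 15.12 and 14.89, and 9.656 and 11.63. Of the H2B enzymes, Usp44, also known from the mitotic checkpoint, had 8.093 and 10.22, and Usp49 had 4.402 and 5.941. In the transcript of Usp49, 53.5% of exon bases are overlapped by exons of other genes, so its value is uncertain. Usp51 had 1.78 and 1.786. After the length correction the median of the whole list was 0.09, beside 0.17 before it.

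The 5 members with roles in DNA damage and replication had a median log2 ratio of -0.08, with 1 above 0, beside 50.4% of all genes. The member above 0 was Usp28, which stabilises Myc and binds 53BP1, with 11.65 and 13.47. Usp37, which acts on cyclin A, had 19.55 and 19.49, and Usp1, Usp7 and Usp10 are given above. For Usp1, 33.5% of its 31-base words also occur in other annotated genes, so its reads may be split between them. The 3 enzymes of free chains and the proteasome had a median of 0.01, and Usp13, the relative of Usp5, had 1.82 and 1.838. The 3 spliceosome members had a median of -0.13. There Usp4 had 36.13 and 36.78, and Usp15 had 33.39 and 30.54.

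The 3 enzymes of receptors and endosomes each had a log2 ratio above 0, beside 50.4% of all genes, and their median was 0.14. Usp8, which recycles the EGF receptor, had 27.5 and 28.83. Usp20 and Usp33, which act on the β2-adrenergic receptor, had 3.647 and 4.215, and 16.39 and 18.04. Exons of other genes on the opposite strand overlap 44.0% of the exon bases of Usp33, 45.9% of those of Usp14 and 24.9% of those of Usp38, and whether the counting used strand is not stated. Of the membrane-bound members, Usp30 of the mitochondrial outer membrane had 6.676 and 7.089, and Usp19 had a log2 ratio of -0.15. Among the members known mainly from the germ line or single tissues, 5 of 9 passed the filter, beside 49.9% of all symbols. The 5 held Usp26 and Usp17le, the extremes of the family apart from Usp21. Their median was -0.25, but Usp17lb and Usp17le passed through the control library alone, which favours low ratios, so that median is no result about the list.

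Of the members with other roles, 16 of 18 passed, beside 49.9% of all symbols. Of these 16, 14 had a log2 ratio above 0, beside 50.4% of all genes that passed. The median of the 16 was 0.24, and it became 0.08 after the length correction. Their control FPKM ran from 1.231 for Usp35 to 45.72 for Usp48. Usp32 had 10.12 and 13.19, Usp38 had 10.7 and 13.8, and Usp40 had 6.729 and 8.932. Usp36, a nucleolar enzyme, had 14.37 and 15.95, and its relative Usp42 had 8.498 and 9.587. Usp47, an enzyme of DNA polymerase β, had 18.72 and 19.76. The members under 0 were Usp45 (10.36 and 10.05) and Usp54.

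All 5 X-linked members with an FPKM of at least 1, Usp9x, Usp11, Usp26, Usp27x and Usp51, had a log2 ratio above 0. In the whole family 69.4% of the 49 members were above 0. The median of the 5 was 0.43, but Usp51 was at 0.01. Usp27x was near the filter, at 1.004 in control cells and 1.396 after knockdown. With the length correction Usp9x was under 0, and the median was 0.37. Over all 403 X-linked genes that passed the filter the median log2 ratio was 0.02 and 51.6% were above 0.

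Close relatives were set side by side to see whether a relative of USP21, or one copy of a pair, took a different course. USP2 shares 49.3% of residues with USP21 over 377 aligned positions, more than any other member with an alignment of like length. Usp2 had 0.09775 times the FPKM of Usp21 in control cells and 0.6117 times after knockdown. That ratio moved through Usp21, since the FPKM of Usp2 was 2.561 and 2.134. Across the 45 members other than Usp21 that passed the filter and could be aligned to USP21, identity and log2 ratio were hardly related (Spearman rho -0.068, a description over members that share domains). The aligned stretches differ in length, such as 96 residues for Usp28 (34.4% identity) and 389 for Usp8 (35.0%). Identity on this measure therefore does not rank the members by relatedness to USP21.

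In every pair of relatives compared, the member with the higher FPKM in control cells was also the higher one after knockdown. Usp9y had no value above 0, so its pair with Usp9x has no ratio. Usp22 had 67.59 and 72.68 times the FPKM of Usp27x, with which it shares 84.2% of residues, and Usp5 had 42.65 and 35.81 times that of Usp13 (62.8% identity). Usp12 and Usp46, at 88.3% identity, lay closer, at ratios of 1.566 and 1.281. Usp4 and Usp15 (60.4% identity) were almost level, at 1.082 and 1.204, while their relative Usp11 had 0.5102 and 0.7546 times the FPKM of Usp15. Usp44 and Usp49 kept ratios of 1.839 and 1.721.

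The relatives of Usp26 did not share its difference. Usp37, with 36.9% identity, had a log2 ratio of -0.00 at an FPKM of 19.55 and 19.49, and Usp29, with 36.8%, was near 0 FPKM in both libraries. Usp25 and Usp28, at 52.2% identity, had log2 ratios of 0.60 and 0.21. Usp53 (2.551 and 3.048) and its relative Usp54 stood on opposite sides of 0, with 0.25 and -0.22. Usp31 (4.576 and 5.444) stayed above its relative Usp43 by 9.237 and 9.997 times.

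**Figure D4:**
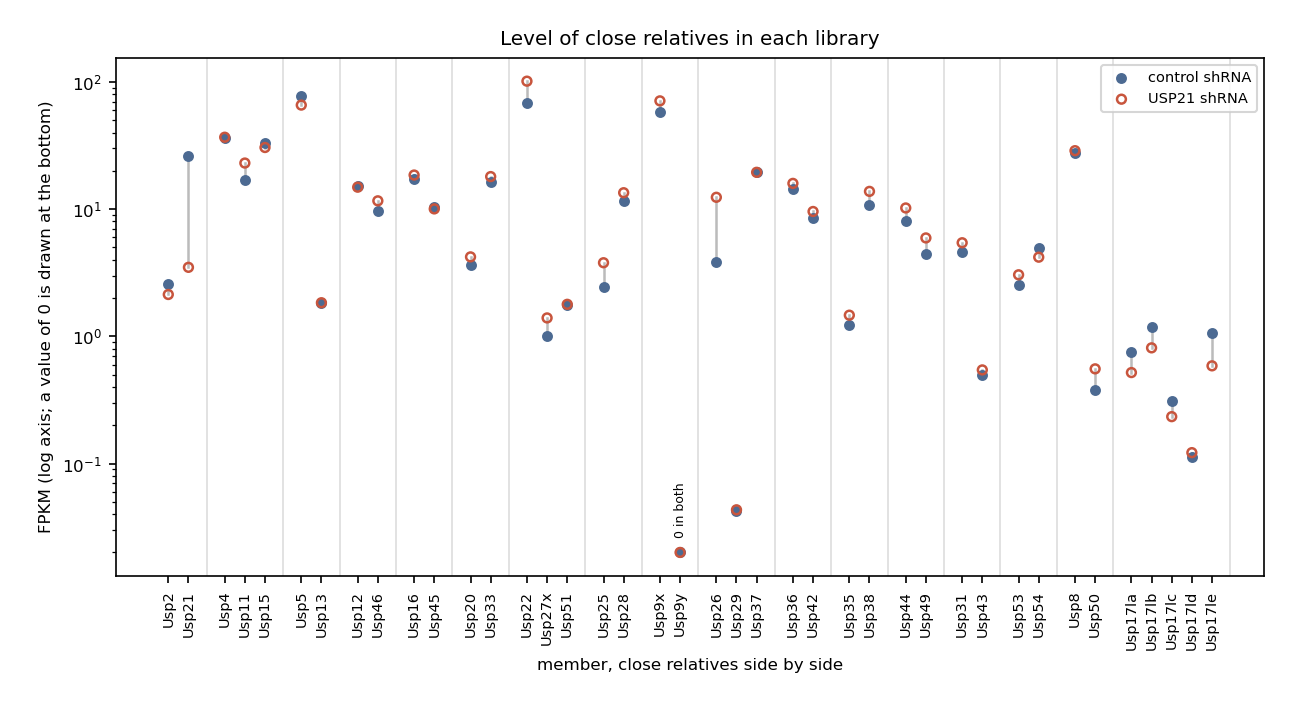
FPKM (log axis) of close relatives, grouped, in the control library (filled points) and the USP21 shRNA library (open points), 1 library each. Usp21 is the member of its pair that moves, Usp26 moves while Usp29 and Usp37 stay, and 4 of the 5 Usp17l genes at the right are lower with the USP21 shRNA.

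The Usp17l genes, cytokine-inducible deubiquitinases known from blood cells, lie in a cluster on chromosome 7 and are close copies of one another. Of the 5 genes, 4 were lower with the USP21 shRNA, while 50.4% of all genes that passed the filter had a log2 ratio above 0. The summed FPKM of the 5 was 3.436 and 2.273, a log2 ratio of -0.57. Between 34.2% and 65.7% of the 31-base words of each occur in other genes, largely in one another. Gm5053, which is not one of the 5, is among the genes that share most with Usp17lb, Usp17lc and Usp17ld. The split of reads among the 5 genes and their summed FPKM are therefore uncertain, and all 5 lie near or under an FPKM of 1.

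Of the 19 further genes written down for the pathway, 17 were in the data and 16 passed the filter. None was past 2-fold, and 8 were above 0 and 8 below, beside 50.4% of all genes above 0. The median log2 ratio was -0.00. Among the most abundant were the ubiquitin genes Rps27a (1886 and 1300) and Ubb (1118 and 1225), and G3bp1 (298.3 and 276.3). Rps27a, which encodes ubiquitin fused to a ribosomal protein, had the lowest log2 ratio, -0.54, and -0.30 after the length correction. The highest was 0.76, for Atxn7 (1.281 and 2.231), which tethers the Usp22 module to SAGA. The other subunits of that module were nearer to 0, with 0.18 for Atxn7l3 (48.9 and 55.44) and -0.00 for Eny2 (29.27 and 29.19). Wdr48, the activator of Usp1, Usp12 and Usp46, had 16.18 and 18.32.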

How the data were processed

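The authors deposited FPKM, 1 value per symbol, for each of the 2 libraries. The submitters' processing notes list CASAVA 1.8.2, TopHat2 2.0.14, Cufflinks 2.2.1 and the build mm9, without their roles or the annotation, and the study's methods text does not describe this sequencing. The files give no counts, and therefore no interval or detection floor, and 1 library per group allows no test.

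Log2 ratios used a pseudocount of 0.1 FPKM, and genes had to reach an FPKM of 1 in either library. Called means past 2-fold. Lengths, gene positions and coding windows came from GENCODE M21 (GRCm38), 1 APPRIS principal transcript per gene, and no mm9 coordinate was used. Identity was computed from translated coding sequences by local alignment (BLOSUM62, gap costs 11 and 1). No RefSeq protein table was used here. The length correction was a lowess fit (span 0.3) over 95.4% of the genes that passed. The log2 ratio, the calls past 2-fold and the length correction were tested on simulated data. The choice of transcript, the coding windows and the identity were not. Python 3.11.15, pandas 2.3.3, statsmodels 0.14.6 and Biopython 1.88 were used.

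The rule for named genes took Usp21 and Usp2, the 10 highest members, the 6 highest and 6 lowest log2 ratios, role lists and relatives, members under 1, and the 4 highest pathway genes, of which 1 is not reported here. Other pathway genes were named after their values were seen. The members and lists were chosen with earlier results of these data known. Alternatives were other pseudocounts, filters, scalings and fold limit, the length correction, and leaving out the 3 members with no cysteine codon located.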

Additional observations from a re-analysis of the deposited data

How the results depend on the processing

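No paired analysis was possible because each group has 1 library, and for the same reason no library could be left out. With a fold limit of 1.5 the number of members past the limit was 2 higher and 2 lower, in place of 1 and 1. The median log2 ratio of the members was 0.324 with equal sums and 0.007 after the length correction, in place of 0.15. The split above and below 0 was 34 to 15 as deposited, 43 to 6 with equal sums (9 members turned above 0) and 26 to 23 after the length correction (8 turned below 0). Equal sums raised the median of all genes as well, to 0.179. The share of all genes above 0, 50.4% as deposited, was not computed for the other 2 settings. Usp26 and Usp21 remained the members past 2-fold under both other pseudocounts, all 3 other filters, both other scalings and the length correction. Of the alternative values compared, 4 moved as given, and 117 stayed on their side of the fold limit or moved less than the limit set for them. Among the latter, single members within 2-fold crossed 0: Usp9x after the length correction (-0.04), and with equal sums Usp7 (0.10), Usp39 (0.03) and Usp1 (0.015). At FPKM of at least 5, at least 0.1 and with no filter, 37, 54 and 56 members were kept. The depth behind a single FPKM value is unknown, so differences of low members such as the Usp17l genes have no stated precision.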
